A study of Mus musculus with 18 samples.

Results

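The 4 receptor genes of the HER family, 4 genes that lie beside Erbb2 on mouse chromosome 11 and 2 genes that encode inhibitors of HER receptors were followed in 18 tumours grown from PB2 cells, a mouse breast cancer line. The receptors are Erbb2, Egfr, Erbb3 and Erbb4, the genes beside Erbb2 are Stard3, Pgap3, Mien1 and Grb7, and the inhibitors are Errfi1 and Lrig1. The first 8 were taken by family and by position, and Errfi1 and Lrig1 were added by name. All 10 are among the 54532 genes of the count table and among the 17123 that had enough reads to be tested.

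The series holds 10 tumours of genotype EV and 8 of genotype p95HER2, and it addresses the effect of p95HER2 overexpression in PB2 tumours. What EV stands for is not spelled out in the labels. All mice, of both groups, were fed a doxycycline diet (DOX625). Strain, sex and age of the mice, the promoter that drives p95HER2, the species of its sequence and whether the lines are clones are not known from the labels. They also leave unsaid whether every tumour grew in its own mouse, and the spread behind the p-values may therefore be partly technical.

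HER2, the product of Erbb2, is a receptor tyrosine kinase with no known ligand of its own. It signals as the partner of EGFR, HER3 and HER4, which bind the growth factors of the EGF and neuregulin families. p95HER2 is a fragment of HER2 that keeps the kinase domain and lacks most of the part outside the cell. In human breast cancer ERBB2 is often amplified together with its neighbours STARD3, PGAP3, MIEN1 and GRB7, and for that reason these genes are shown beside it.

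Erbb2 spans chr11:98412470-98437716 on the plus strand of mm10, in the GENCODE annotation of that build. Stard3 (chr11:98358368-98381112, plus strand) ends 31358 bases before it, and Pgap3 (chr11:98388677-98400490, minus strand) 11980 bases before it. Mien1 (chr11:98437708-98438991, minus strand) overlaps the last 9 bases of Erbb2, and Grb7 (chr11:98446394-98455373, plus strand) starts after a gap of 8678 bases. Egfr (chr11:16752203-16918158) lies far from them on the same chromosome, while Erbb3 (chr10:128567523-128589652), Erbb4 (chr1:68032186-69108059), Errfi1 (chr4:150853919-150868892) and Lrig1 (chr6:94604529-94700158) lie elsewhere. The strand setting of the read counting is not given, so reads in the Erbb2 and Mien1 overlap, and in the 955 bases that Mien1 shares with the antisense gene Gm12352, cannot be assigned with certainty.

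The promoters of Erbb2, Pgap3 and Stard3 are shown because these were the members that rose in p95HER2 tumours. Each holds 300 bases of RefSeq sequence (GRCm38.p6), from 250 bases before the start site to 50 bases after it, 5′ to 3′ on the strand of the gene. Capitals mark matches to GGAAGT on either strand (ACTTCC where the match is on the other strand), the core to which ETS family transcription factors bind. This motif was chosen after the Erbb2 promoter had been read.
Erbb2, chr11:98412234-98412533, plus strand: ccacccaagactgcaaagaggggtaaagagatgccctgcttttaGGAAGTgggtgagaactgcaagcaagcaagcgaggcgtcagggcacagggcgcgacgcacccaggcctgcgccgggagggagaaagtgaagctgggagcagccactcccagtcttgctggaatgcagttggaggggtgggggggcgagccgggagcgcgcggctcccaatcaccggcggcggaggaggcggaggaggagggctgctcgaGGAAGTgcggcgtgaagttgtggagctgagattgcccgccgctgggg
Pgap3, chr11:98400441-98400740, minus strand: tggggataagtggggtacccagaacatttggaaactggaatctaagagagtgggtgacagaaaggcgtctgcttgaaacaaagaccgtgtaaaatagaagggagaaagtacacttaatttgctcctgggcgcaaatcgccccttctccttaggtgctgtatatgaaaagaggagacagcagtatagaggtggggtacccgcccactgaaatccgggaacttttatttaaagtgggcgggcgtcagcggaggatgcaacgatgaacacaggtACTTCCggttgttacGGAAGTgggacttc
Stard3, chr11:98358118-98358417, plus strand: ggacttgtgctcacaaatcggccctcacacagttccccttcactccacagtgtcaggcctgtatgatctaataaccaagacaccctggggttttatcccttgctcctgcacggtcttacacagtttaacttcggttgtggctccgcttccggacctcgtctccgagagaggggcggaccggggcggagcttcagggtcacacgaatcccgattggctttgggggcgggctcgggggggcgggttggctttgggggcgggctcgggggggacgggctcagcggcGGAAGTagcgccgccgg
Erbb2 and Pgap3 each had 2 matches and Stard3 had 1. In Erbb2 they lay at -206 to -201 and at 3 to 8. In Pgap3 they lay at 21 to 26 and 36 to 41, and in Stard3 at 33 to 38. The first transcribed base is counted as 0. RefSeq promoters were found for 8 of the 10 members, and none of the others (Egfr, Erbb4, Mien1, Errfi1 with 2 promoters, and Lrig1) held the motif. Of all 32851 promoters of this length 23.8% held it. Within 500 kb, 15 tested genes had a RefSeq promoter, Erbb2, Pgap3 and Stard3 included, and 7 of these (46.7%) held it. Of 4 other motifs searched on both strands, the AP-2 sequence GCCNNNGGC was found among the members in the Lrig1 promoter alone (16.6% of all promoters), TATAAA in the second Errfi1 promoter alone (13.6%), CCAAT in Erbb2, Mien1, Stard3, Errfi1 and Lrig1 (37.4%) and GGGCGG in Egfr, Pgap3, Stard3, Errfi1 and Lrig1 (35.7%). A match is a description of the letters and no evidence of binding. The 3 promoters were taken by their calls and the motif from the Erbb2 promoter, so the split among the members carries no weight. A link between the motif and the calls was not tested.

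Library totals were 35030920 to 38464541 counts for EV and 32686558 to 34804640 counts for p95HER2 and did not overlap between the groups. The tag numbers in the labels also run in separate blocks for the groups, with that of p95HER2 1 far from the rest, and handling that followed these blocks cannot be told apart from genotype. Levels are given as CPM, reads per 1000000 after scaling, and log2 fold changes as p95HER2 minus EV with the standard error (SE). A gene was called at a Benjamini-Hochberg (BH) adjusted p under 0.05 in edgeR's quasi-likelihood test over all 17123 genes. The luminal epithelial marker level, a mean of log2(CPM + 0.5) over 15 measured genes, ran from 6.03 to 6.51 in EV and from 6.05 to 6.39 in p95HER2 tumours, with Foxa1 called higher and Krt19 lower, and no marker of any list was at 0 in every tumour. Other cells contributed as well: 12 of 14 immune markers had a fold change below 0, of which 5 were called lower (Ptprc, Cd4, Adgre1, Cd68 and Lyz2) and S100a8 was called higher, and the immune level ran from 3.87 to 5.02 in EV and from 3.26 to 4.46 in p95HER2 tumours. All 15 skeletal muscle markers lay below 0 with none called, with levels of 2.96 to 8.67 and 4.61 to 7.62. Of 8 adipocyte markers measured 6 were lower (levels 0.94 to 3.13 and 0.07 to 1.35), and of 5 keratinocyte markers 2 were lower (levels 1.37 to 4.03 and 0.95 to 1.71). EV 1 stood apart, with the highest luminal (6.51), basal epithelial (3.93), keratinocyte and adipocyte levels and the lowest muscle level. In bulk tissue fewer cells of a type and less RNA per cell cannot be told apart.

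Erbb2 was higher in every p95HER2 tumour than in any EV tumour. In EV tumours it had 60.4 CPM at the lowest, 68.1 at the median and 74.9 at the highest, and in p95HER2 tumours 122, 143 and 231 CPM. The gap between the groups was therefore wider than the whole range of the EV tumours. The means were 67.9 ± 4.64 CPM (SD, n = 10) and 158 ± 37.7 CPM (SD, n = 8), which is 1.22 on the log2 scale (SE 0.10, 95% interval 1.02 to 1.42, edgeR BH-adjusted p = 2.889e-07). By p-value Erbb2 ranked 11 of 17123 genes. Among all genes tested 0.677% had groups that did not overlap with p95HER2 higher, and Erbb2 was the 1 of the 10 members that did.

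The size of the rise differed from tumour to tumour. Relative to the EV mean, Erbb2 stood at 1.79 in p95HER2 7, 1.86 in p95HER2 5, 2.01 in p95HER2 1 and again in p95HER2 2, 2.19 in p95HER2 3, 2.66 in p95HER2 4, 2.74 in p95HER2 6 and 3.40 in p95HER2 8. EV tumours ran from 0.889 to 1.10 on the same scale. The coefficient of variation was 6.83% in EV and 23.8% in p95HER2 tumours, where counting error alone would give 2.0% and 1.37%. The mean absolute deviation of log2(CPM + 0.5) from the group median was 0.0721 in EV and 0.251 in p95HER2 tumours, a difference of 0.179 (two-sided exact permutation test over 43758 assignments, p = 0.01035). The wider spread rested on the 3 highest tumours together: without p95HER2 4 the exact permutation p was 0.0748, without p95HER2 6 it was 0.0766 and without p95HER2 8 it was 0.0968. Reads of a mouse p95HER2 sequence would be counted under Erbb2 and those of a human one only in part, and with 1 value per gene the reads of the introduced sequence and of the gene itself cannot be told apart.

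**Figure D1:**
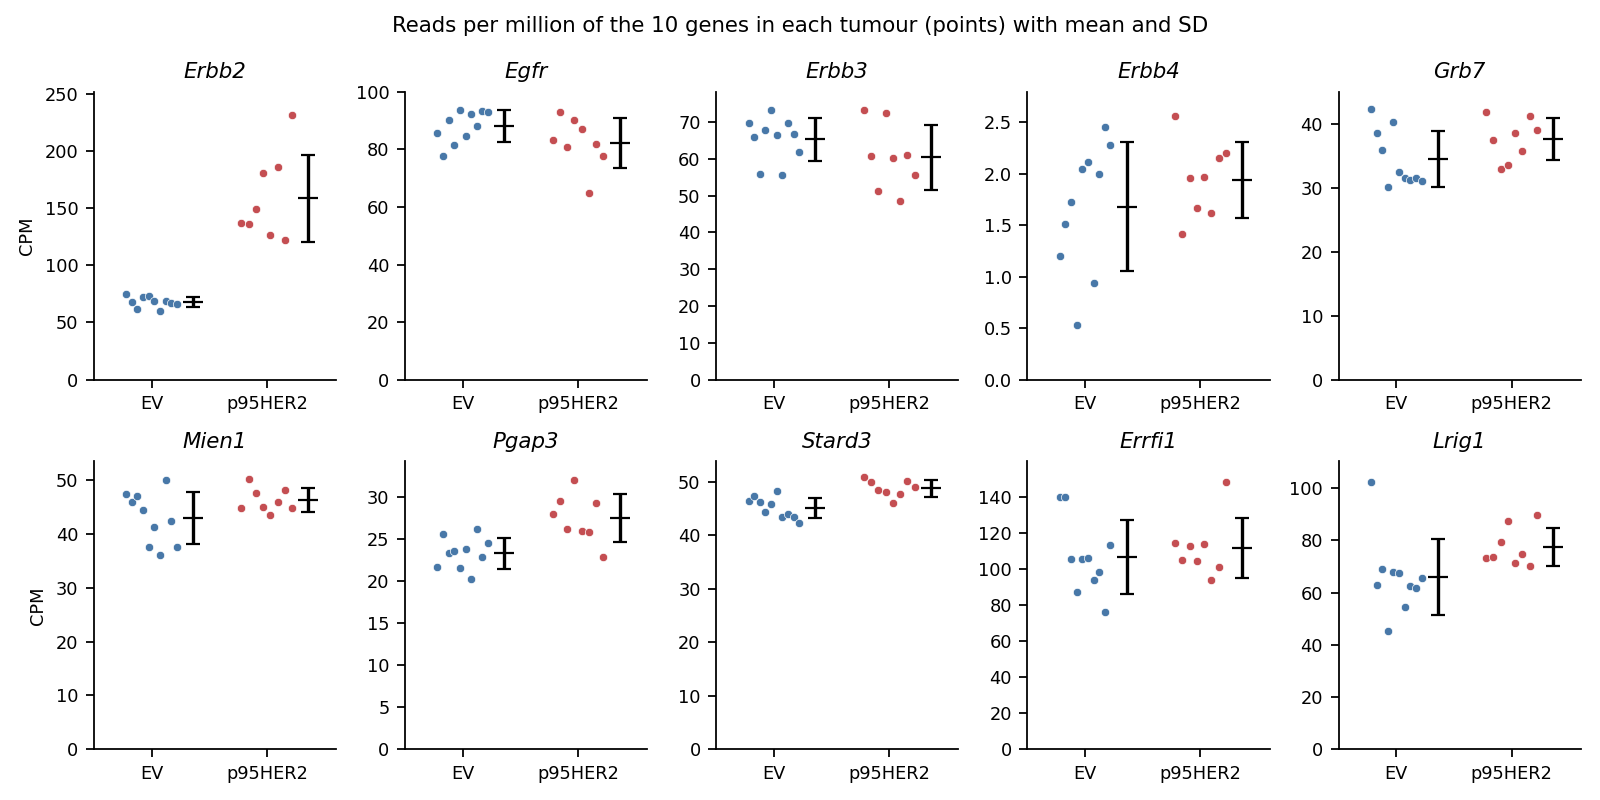
Reads per 1000000 (CPM, vertical axes from 0) of the 10 genes in each EV tumour (blue, n = 10) and each p95HER2 tumour (red, n = 8), with the group mean and SD in black. Erbb2 runs from 60.4 to 74.9 CPM in EV and from 122 to 231 CPM in p95HER2 tumours, while the groups overlap for the 9 other genes.

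The other receptors gave no call in either direction. Of the 10 members 3 were called higher (Erbb2, Pgap3 and Stard3) and 0 lower, where 10.2% of all genes tested were called, 5.73% of them higher and 4.45% lower. DESeq2 called the same 3 members, and the smallest unadjusted p of a member with a fold change below 0 was 0.1095 (edgeR, Egfr). The median log2 fold change of the members was 0.12, against -0.01 for all genes tested.

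Egfr encodes the EGF receptor, the partner that binds EGF, TGF-alpha, amphiregulin and HB-EGF. It had 77.8, 89.2 and 93.8 CPM at the lowest, median and highest EV tumour and 64.7, 82.6 and 93.1 CPM in p95HER2 tumours. The groups overlapped, and 2 of 8 p95HER2 tumours lay below all EV tumours. The log2 fold change was -0.10 (SE 0.06, 95% interval -0.21 to 0.02, edgeR BH-adjusted p = 0.3007).

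Erbb3 encodes HER3, which binds neuregulins, has little kinase activity of its own and couples HER2 to PI3 kinase. Its levels were 55.5, 66.7 and 73.2 CPM in EV and 48.5, 60.5 and 73.1 CPM in p95HER2 tumours. Here too the groups overlapped with 2 p95HER2 tumours below the EV range. Erbb3 differed by -0.11 on the log2 scale (SE 0.08, 95% interval -0.26 to 0.04, edgeR BH-adjusted p = 0.3642). p95HER2 6 had the lowest value of both Egfr, at 0.735 of the EV mean, and Erbb3, at 0.743, and it was among the 3 tumours of highest Erbb2.

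Erbb4 encodes HER4, a second neuregulin receptor. It was scarce, with 20 to 90 reads per EV library and 46 to 88 per p95HER2 library. Its levels were 0.531, 1.86 and 2.45 CPM in EV and 1.41, 1.96 and 2.56 CPM in p95HER2 tumours. Every p95HER2 tumour exceeded the 3 lowest EV tumours, and the ranges otherwise overlapped. The log2 fold change was 0.21 with a wide interval, from -0.23 to 0.64 (SE 0.22, edgeR BH-adjusted p = 0.5964), so the data leave room for a change of that size in either direction.

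Levels of different genes are compared here per length, as RPKM (reads per kilobase of annotated exon sequence per 1000000 reads). In EV tumours Mien1 was highest at 57.6 ± 6.42 RPKM (SD, n = 10), followed by Errfi1 at 29.7 ± 5.74. Erbb2 (13.0 ± 0.891), Stard3 (12.7 ± 0.541), Lrig1 (11.8 ± 2.62), Erbb3 (10.8 ± 0.980) and Grb7 (10.2 ± 1.31) followed, and the ranges of each neighbouring pair in this run overlapped. Egfr at 7.77 ± 0.489 lay below Grb7 in all 10 tumours and overlapped Pgap3 at 7.19 ± 0.567, and Erbb4 was last at 0.136 ± 0.0505 RPKM.

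In p95HER2 tumours Erbb2 kept the third place by mean but moved far from the group it had been in. It reached 30.4 ± 7.24 RPKM (SD, n = 8), overlapped Errfi1 at 31.1 ± 4.60 and stood above Lrig1 (13.9 ± 1.32), the next in order, in all 8 tumours. Stard3 (13.7 ± 0.431), Grb7 (11.2 ± 0.972), Erbb3 (10.0 ± 1.48), Pgap3 (8.47 ± 0.872), Egfr (7.27 ± 0.770) and Erbb4 (0.157 ± 0.0298) followed. Mien1 remained first at 62.0 ± 2.95 RPKM. The order of the genes in the middle depends on the length used: with the longest annotated transcript, Stard3 stood at 20.8 RPKM in EV tumours and above Erbb2, and Grb7 at 14.4. For Erbb2 the full 5210 bases were used in both groups. Reads of an introduced p95HER2 sequence, a fragment, would come from a shorter stretch. The Erbb2 RPKM, and the shares and ratios below, may thus not be on the same scale in both groups.

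Erbb2 made up 39.7% to 42.8% of the summed RPKM of the 4 receptors in EV tumours (mean 41.0 ± 1.15%, SD, n = 10) and 57.1% to 73.2% in p95HER2 tumours (62.9 ± 6.59%, SD, n = 8). Erbb3 took 34.1 ± 1.43% and 21.3 ± 4.04%, Egfr 24.5 ± 2.14% and 15.5 ± 2.83%, and Erbb4 0.427 ± 0.155% and 0.334 ± 0.0798%. These shares add to the whole, so the shares of the other receptors must fall where that of Erbb2 rises. The summed RPKM of Egfr, Erbb3 and Erbb4 itself was 18.8 ± 1.01 in EV and 17.5 ± 2.07 in p95HER2 tumours, and that of all 4 was 31.8 ± 1.76 and 47.9 ± 6.79.

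Within a tumour the ratio of Erbb2 to Erbb3 was narrow in EV tumours, from 1.13 to 1.28 with a mean of 1.21 ± 0.0480 (SD, n = 10). In p95HER2 tumours it ran from 2.16 to 4.80 (mean 3.12 ± 1.002, SD, n = 8). The ratio of Erbb2 to Egfr ran from 1.42 to 1.92 in EV and from 3.15 to 6.46 in p95HER2 tumours. For both ratios the groups did not overlap.

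**Figure D2:**
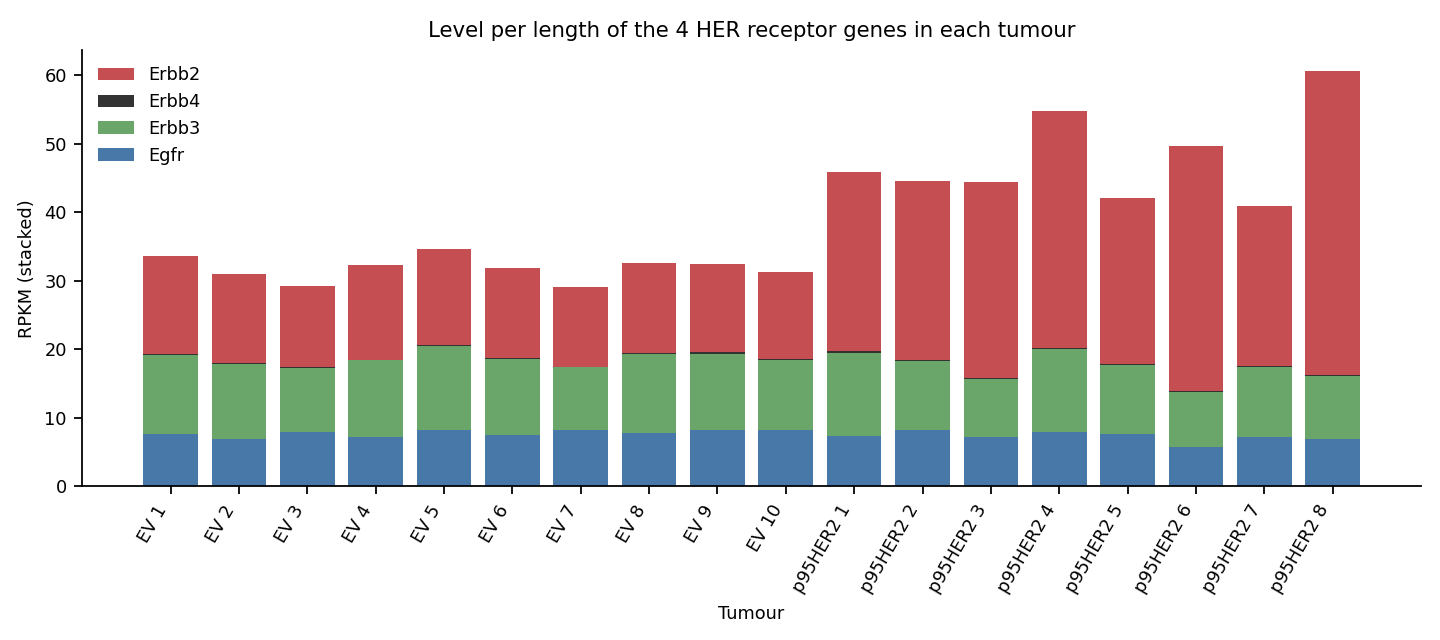
RPKM of the 4 HER receptor genes stacked for each of the 18 tumours (horizontal axis), with Egfr at the bottom, then Erbb3, Erbb4 and Erbb2 on top. The summed RPKM of Egfr, Erbb3 and Erbb4 is near 18.8 in EV and 17.5 in p95HER2 tumours, and the Erbb2 segment runs from 11.6 to 14.4 in EV and from 23.4 to 44.4 in p95HER2 tumours.

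Differences at the genes beside Erbb2 were small. Pgap3 and Stard3 were called higher, and Mien1 and Grb7 were not called. The 95% intervals of all 4 lay below the Erbb2 interval, with upper bounds from 0.18 to 0.36 against a lower bound of 1.02 for Erbb2.

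Pgap3 encodes a Golgi enzyme that remodels the lipid part of GPI anchors. Its lowest, median and highest levels were 20.3, 23.5 and 26.2 CPM in EV and 22.9, 27.1 and 32.1 CPM in p95HER2 tumours. The ranges overlapped, and 5 of 8 p95HER2 tumours lay above all EV tumours. It rose by 0.24 on the log2 scale (SE 0.06, edgeR BH-adjusted p = 0.01911). p95HER2 8, the tumour of highest Erbb2, was the lowest of its group for Pgap3, at 0.983 of the EV mean. With the immune level as a covariate the call was lost and the log2 fold change was 0.135 (edgeR BH-adjusted p = 0.2883). That fit called 2.67% of all genes, against 10.2% without the covariate.

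Stard3 encodes a cholesterol-binding protein of late endosomes. It had 42.4, 45.2 and 48.2 CPM in EV and 46.1, 48.7 and 50.9 CPM in p95HER2 tumours, and 5 p95HER2 tumours lay above all EV tumours. It rose by 0.11 on the log2 scale, the smallest called difference among the members (SE 0.03, 95% interval 0.04 to 0.18, edgeR BH-adjusted p = 0.04551). The call was marginal, as leaving out any single 1 of 13 tumours ended it (EV 3, 4, 5, 7, 8, 9 or 10, or p95HER2 1, 2, 3, 4, 7 or 8), with an edgeR BH-adjusted p from 0.0513 to 0.0922. It was also lost with library totals only (0.0603), with no filter (0.154), and with the muscle level (0.0744) or the immune level (0.200) as a covariate. These settings called 10.0%, 4.26%, 10.5% and 2.67% of all genes, in that order.

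Grb7 encodes an adaptor that binds phosphorylated HER2 and HER3 through its SH2 domain. It had 30.1, 32.0 and 42.2 CPM in EV and 32.95, 37.99 and 41.9 CPM in p95HER2 tumours. Every p95HER2 tumour lay above 6 of the 10 EV tumours and none above the highest. Grb7 differed by 0.12 on the log2 scale (SE 0.07, 95% interval -0.02 to 0.26, edgeR BH-adjusted p = 0.2847).

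Mien1 encodes a small membrane-anchored protein linked to cell migration. Its levels were 36.1, 43.5 and 50.1 CPM in EV and 43.6, 45.5 and 50.3 CPM in p95HER2 tumours, with 5 EV tumours below all p95HER2 tumours. This is a difference of 0.11 on the log2 scale (SE 0.06, 95% interval -0.01 to 0.22, edgeR BH-adjusted p = 0.2722). The antisense gene Gm12352, named after its values were seen, differed by 0.15 on the log2 scale (SE 0.11, edgeR BH-adjusted p = 0.4135).

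The stretch around Erbb2 was looked at by position. Within 500 kb on either side 30 other genes were tested, with 5 higher and 0 lower in p95HER2 tumours and a median log2 fold change of 0.04. The share called was 5 of 30, where 10.2% of all genes were called. Within 250 kb there were 12 genes, 3 of them higher, with a median of 0.11, and within 1000 kb 55 genes, 8 of them higher, with a median of 0.05. Over chromosome 11 without Erbb2, 95 of 1364 tested genes were higher and 63 lower, with a median of 0.01. Without EV 1 the 500 kb stretch had 5 higher and 3 lower (Ikzf3, Tcap and Arl5c) where 13.7% of all genes were called, and with the immune level as a covariate it had 0 of either where 2.67% were called. DESeq2 called 5 higher and 3 lower (Ikzf3, Nr1d1 and Arl5c), where it called 13.8% of all genes.

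Besides Pgap3 and Stard3 the higher genes of this stretch were Ormdl3, Csf3 and Wipf2. Ormdl3, a regulator of sphingolipid synthesis, had 41.0, 44.6 and 50.7 CPM in EV and 49.3, 52.2 and 54.1 CPM in p95HER2 tumours and rose by 0.20 on the log2 scale (SE 0.04, edgeR BH-adjusted p = 0.005306). Wipf2, an actin regulator, rose by 0.16 (SE 0.04, edgeR BH-adjusted p = 0.02528), a call lost without p95HER2 5 (edgeR BH-adjusted p = 0.0502). Csf3, which encodes the neutrophil growth factor G-CSF, had 0.758, 1.53 and 4.09 CPM in EV and 1.99, 3.10 and 9.72 CPM in p95HER2 tumours and rose by 1.19 (SE 0.32, edgeR BH-adjusted p = 0.02417). Among the higher genes of this stretch its difference came nearest to that of Erbb2, and its groups overlapped. With no filter the calls of Csf3 (edgeR BH-adjusted p = 0.0565) and Wipf2 (edgeR BH-adjusted p = 0.0574) were lost, where 4.26% of all genes were called.

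Of the 2 nearest expressed genes on each side of the members, Ormdl3 was called and the other 3 were not. Ppp1r1b, next to Stard3, differed by 0.24 on the log2 scale (SE 0.12, edgeR BH-adjusted p = 0.2187) and Cdk12, a kinase of transcription elongation, by 0.05 (SE 0.06, edgeR BH-adjusted p = 0.682). Ikzf3, a lymphocyte transcription factor beyond Grb7, had 2.10 ± 1.19 CPM in EV (SD, n = 10) and 0.815 ± 0.451 CPM in p95HER2 tumours (SD, n = 8) which is -1.36 on the log2 scale (SE 0.45, edgeR BH-adjusted p = 0.0611). Tcap, a sarcomere gene between Stard3 and Pgap3 that was named after its values were seen, had 2.78 CPM in EV 1, the tumour with the lowest muscle level, and up to 133 CPM in the other EV tumours. In p95HER2 tumours Tcap had 13.5 to 71.3 CPM. Its log2 fold change was -0.999 (SE 0.48, edgeR BH-adjusted p = 0.1951). With the muscle level as a covariate the log2 fold change of Tcap was -0.007 (edgeR BH-adjusted p = 0.9816), and with the immune level that of Ikzf3 was -0.195 (edgeR BH-adjusted p = 0.7563). Tcap is itself a muscle gene and Ikzf3 a lymphocyte gene, so such fits take away much of their difference by construction. Cell content as the cause was not tested.

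**Figure D3:**
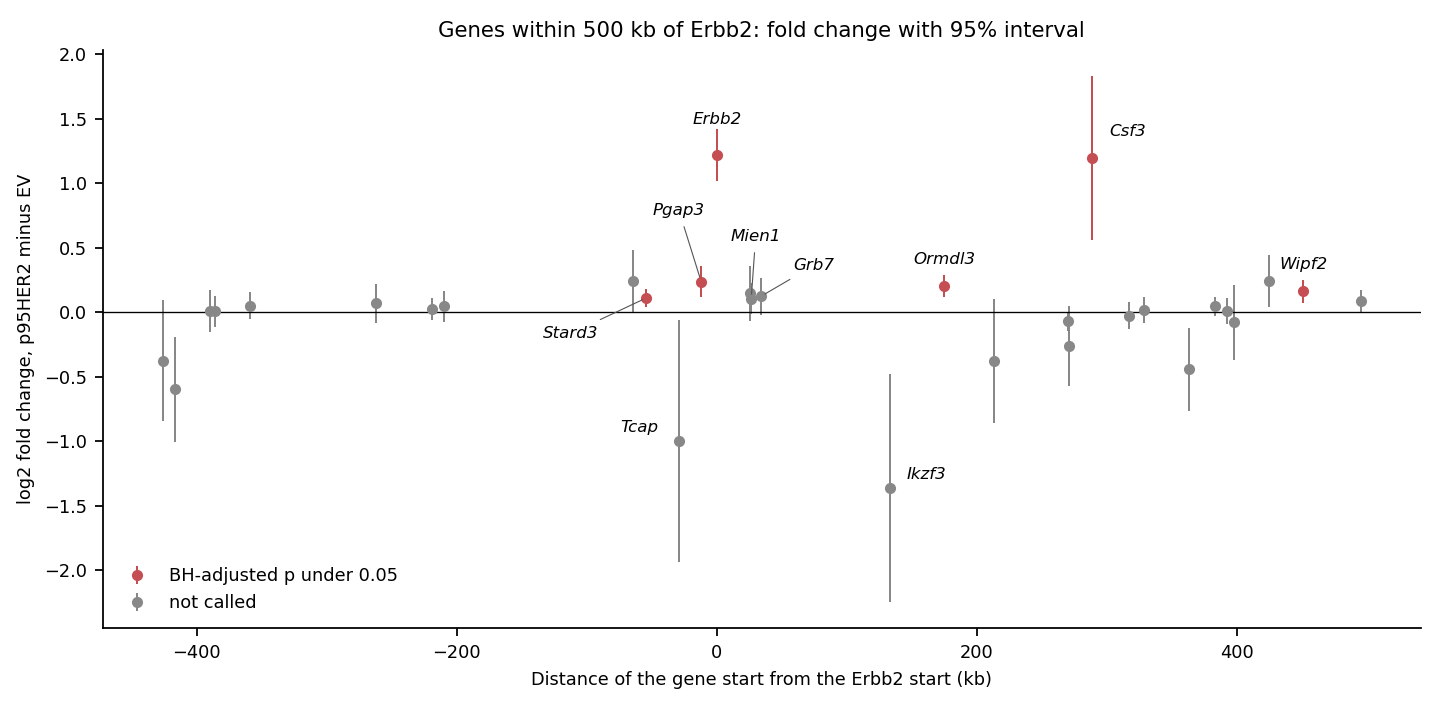
Log2 fold change (p95HER2 minus EV, with its 95% interval) of Erbb2 and the 30 other tested genes within 500 kb, by distance of the gene start from the Erbb2 start in kb. Called genes are red. Erbb2 stands at 1.22 while Stard3, Pgap3, Mien1 and Grb7 lie between 0.11 and 0.24.

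The inhibitors gave no call with all tumours. Errfi1 encodes MIG6, which is induced by receptor signalling and binds the kinase domains of EGFR and HER2. It had 76.2, 105 and 140 CPM in EV and 93.6, 109 and 148 CPM in p95HER2 tumours, with the groups overlapping nearly throughout. The log2 fold change was 0.07 (SE 0.11, 95% interval -0.15 to 0.28, edgeR BH-adjusted p = 0.749). Without p95HER2 8, the highest tumour, it was -0.001.

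Lrig1 encodes a membrane protein that promotes the degradation of HER receptors. It had 45.2, 64.3 and 102 CPM in EV and 70.3, 74.2 and 89.6 CPM in p95HER2 tumours, and 9 of the 10 EV tumours lay below all p95HER2 tumours, with EV 1 as the exception. With all tumours the log2 fold change was 0.23 (SE 0.11, edgeR BH-adjusted p = 0.1722). Without EV 1 Lrig1 was called higher, with a log2 fold change of 0.32 (edgeR BH-adjusted p = 0.008267). In that fit 4 members were called and 13.7% of all genes, against 10.2% with all tumours. Lrig1 was also called with the luminal level as a covariate (edgeR BH-adjusted p = 0.003587) and by limma voom (BH-adjusted p = 0.0308). These settings called 15.3% and 13.3% of all genes. In the other 25 of 28 alternatives Lrig1 was not called, and over all 28 its log2 fold change ran from 0.119 to 0.324. With the immune level as a covariate the median log2 fold change of the 2 inhibitors was 0.072, and with the muscle level 0.087. Without a covariate it was 0.149. In p95HER2 tumours p95HER2 8 was highest for Erbb2, Lrig1 and Errfi1, at 3.40, 1.36 and 1.39 of the respective EV means.

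**Figure D4:**
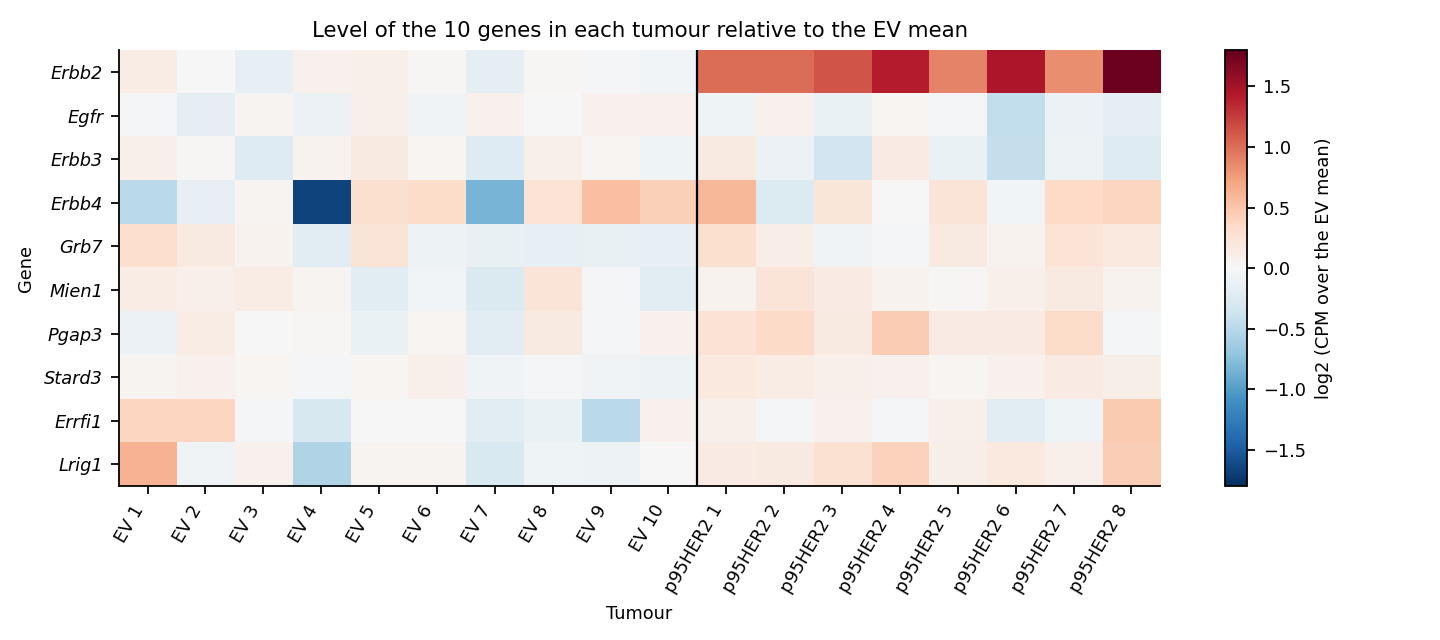
Level of each of the 10 genes (rows) in each of the 18 tumours (columns) as the log2 of CPM over the EV mean, red above and blue below it, with a line between EV and p95HER2 tumours. Erbb2 is red in all 8 p95HER2 tumours, at 1.79 to 3.40 of the EV mean, and the pale rows of Stard3, Mien1 and Grb7 show values near the EV mean throughout.

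Variation among tumours differed between members. Stard3 was the steadiest, with a coefficient of variation of 4.26% in EV and 3.14% in p95HER2 tumours where counting error would give 2.45% and 2.46%. Erbb4 varied most in EV tumours, at 37.1%, of which counting error of 12.7% is a part, followed by Lrig1 at 22.2% and Errfi1 at 19.3%. In p95HER2 tumours Erbb2 had the highest coefficient of variation of the 10 genes, 23.8%.

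The genes most like Erbb2 across tumours were sought by Pearson's r of the deviations from the own group mean of log2(CPM + 0.5), over 18 tumours and 12095 genes. Among them were S100a6 (r = 0.876), which encodes a calcium-binding protein, Dynap (0.867), the secreted protease gene Klk6 (0.857) and the laminin subunit gene Lama3 (0.845). These values are a description of the same libraries, with no test. Dynap had 0 to 7 reads per EV library and Klk6 0 to 10, so they were ranked only through the p95HER2 tumours. Over those 8 tumours alone r was 0.913 for Dynap and 0.924 for Klk6. Over the EV tumours, with these few reads, it was 0.355 and 0.252. Lama3 was low in EV tumours as well, with 39 to 97 reads per library. Its mean was 1.81 CPM there and 28.25 CPM in the other group, so its mean level rested mostly on p95HER2 tumours. For Lama3 r was 0.699 over the EV and 0.876 over the p95HER2 tumours, and for S100a6 it was 0.767 and 0.931. Among the members ranked, Lrig1 came first at place 975 (r = 0.394), Errfi1 at 1706 (0.302) and Egfr last at 11070 (-0.424). Erbb3 (-0.041) and the neighbours Stard3 (0.013), Mien1 (-0.015), Grb7 (-0.054) and Pgap3 (-0.308) stood between. The r differed between the groups for some members. For Erbb3 it was 0.922 over the EV tumours and -0.284 over the p95HER2 tumours, and for Lrig1 it was 0.32 and 0.851. Erbb4 was too low to be ranked.

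Of 11 genes that encode HER ligands 8 were measured, with 3 higher and 0 lower, where 10.2% of all genes were called, and a median log2 fold change of 0.14 against -0.01 for all genes. Hbegf, which encodes HB-EGF, a ligand of EGFR and HER4, had 4.97, 9.86 and 29.0 CPM in EV and 17.8, 24.6 and 47.0 CPM in p95HER2 tumours and rose by 1.22 (SE 0.29, edgeR BH-adjusted p = 0.01275). Nrg2, a neuregulin, rose from 21.1 ± 3.27 CPM (SD, n = 10) to 28.6 ± 3.49 CPM (SD, n = 8), by 0.44 (edgeR BH-adjusted p = 0.005392), and Tgfa, which encodes the EGFR ligand TGF-alpha, by 0.18 (edgeR BH-adjusted p = 0.02221). EV 1 was the highest EV tumour for Hbegf. Without EV 1, 4 ligands were higher (Areg besides these) and Egf was lower, where 13.7% of all genes were called. With the immune level as a covariate 0 were called, where 2.67% of all genes were. The log2 fold change was then 1.15 for Hbegf, 0.385 for Nrg2 and 0.094 for Tgfa, against 1.22, 0.44 and 0.18 without the covariate.

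Adaptors and effector kinases, which carry the signal from the receptors, were called in 4 of 32 cases, 2 higher and 2 lower, with a median of -0.01. This share is near the 10.2% of all genes tested, and the calls describe single genes, not the list. Plcg1, which encodes phospholipase C gamma, had 106, 113 and 120 CPM in EV and 121, 130 and 152 CPM in p95HER2 tumours, and the groups did not overlap. It rose by 0.22 (SE 0.04, edgeR BH-adjusted p = 0.004085), and the adaptor Nck2 rose by 0.17 (SE 0.05, edgeR BH-adjusted p = 0.02956). Ptpn11, which encodes the phosphatase SHP2, fell by 0.37 (SE 0.09, edgeR BH-adjusted p = 0.01074) and the docking protein Gab1 fell by 0.29 (SE 0.09, edgeR BH-adjusted p = 0.04713). The Gab1 call was lost in 12 of 18 fits that each left out 1 tumour (edgeR BH-adjusted p up to 0.0898) and that of Nck2 in 3 of them, without EV 9, p95HER2 1 or p95HER2 7 (edgeR BH-adjusted p up to 0.0686). Without EV 1 Grb2 and Src were higher as well, where 13.7% of all genes were called. With the immune level as a covariate 0 of the 32 were called, where 2.67% of all genes were. Ptpn11 then had a log2 fold change of -0.325 and Plcg1 one of 0.156.

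Genes of receptor turnover and inhibition gave 1 call among 23 measured, where 10.2% of all genes were called. Eps15, which encodes an endocytic adaptor of EGFR, fell by 0.14 (SE 0.04, edgeR BH-adjusted p = 0.03699), and its call was lost in 9 of 18 fits that left out 1 tumour (edgeR BH-adjusted p up to 0.0685). Without EV 1 there were 3 higher (Cblc, Lrig2 and Socs5) and 2 lower (Eps15 and Lrig3). The count thus changed with that tumour, and the share of all genes called rose as well, to 13.7%. The relatives of Lrig1, named here after their values were seen, were not called with all tumours, with Lrig2 at a log2 fold change of 0.17 (edgeR BH-adjusted p = 0.0505) and Lrig3 at -0.22 (edgeR BH-adjusted p = 0.0628) in all tumours.

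Chaperones and membrane partners of the receptors included 2 higher genes and 1 lower among 15 measured, where 10.2% of all genes were called. Itgb4, the integrin subunit that forms a complex with HER2 in epithelia, had 114, 146 and 201 CPM in EV and 178, 232 and 249 CPM in p95HER2 tumours and rose by 0.56 (SE 0.09, edgeR BH-adjusted p = 0.001037). Cd44, a hyaluronan receptor, rose by 0.37 (SE 0.07, edgeR BH-adjusted p = 0.002458), and the mucin gene Muc1 fell by 0.46 (SE 0.12, edgeR BH-adjusted p = 0.01884). These 3 calls were also made without EV 1 and with the immune level as a covariate. The HSP90 genes, whose products stabilise HER2, were not called, with log2 fold changes of -0.06 for Hsp90aa1 (SE 0.18) and -0.003 for Hsp90ab1 (SE 0.04).

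Of 14 genes of receptor and ligand shedding 1 was called, where 10.2% of all genes were. This was Rhbdf2, a cofactor of the protease ADAM17, which rose by 0.23 (SE 0.05, edgeR BH-adjusted p = 0.008092). Adam10, whose product cleaves HER2, differed by 0.07 on the log2 scale (SE 0.06, edgeR BH-adjusted p = 0.4493) and Adam17 by -0.003 (SE 0.04, edgeR BH-adjusted p = 0.9817). Of 14 measured transcription factors linked to Erbb2 or Erbb3 transcription 1 was called, again where 10.2% of all genes were. The ETS factor gene Etv4 rose by 0.25 (SE 0.07, edgeR BH-adjusted p = 0.01986). With the immune level as a covariate its log2 fold change was 0.251 and its call was lost (edgeR BH-adjusted p = 0.0975). In that fit 2.67% of all genes were called. The AP-2 genes Tfap2a and Tfap2c had log2 fold changes of 0.08 (SE 0.05) and 0.13 (SE 0.08) and were not called.

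**Figure D5:**
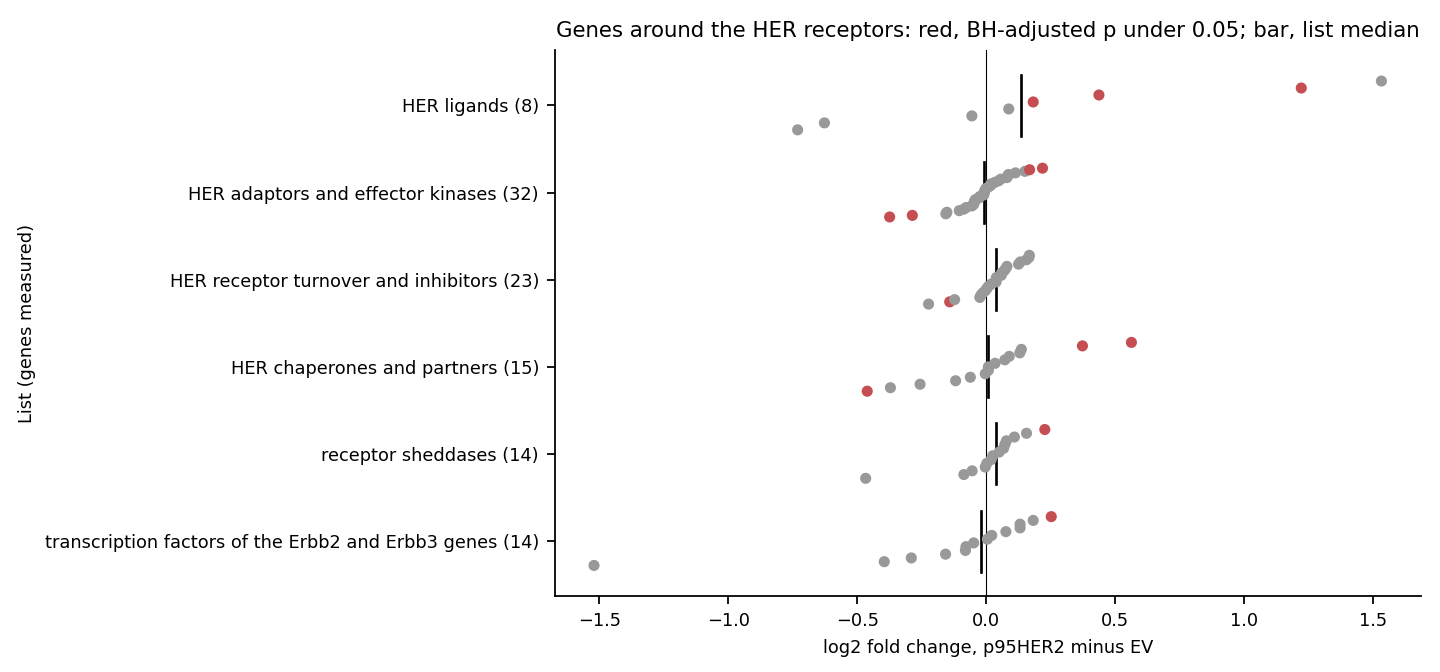
Log2 fold change (p95HER2 minus EV) of each measured gene of the 6 lists around the HER receptors, with called genes in red, other genes in grey and the list median as a bar. The medians lie between -0.02 and 0.14, and 3 of 8 ligand genes are called.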

How the data were processed

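RNA of 18 tumours (10 EV, 8 p95HER2) was sequenced, per the labels' protocols from directional mRNA libraries. The deposited table holds unnormalized read counts for each Ensembl gene. STAR 2.5, HTSeq 0.6.1 and mm10 are named in the submitters' processing notes, with strand setting and annotation release not given in the sources used here. Groups came from the genotype label, and replicate numbers only name a sample. The most similar libraries (p95HER2 1 and 2) differed by more than sampling noise (chi-square per gene 9.8), so all 18 were kept.

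Genes were filtered with filterByExpr (minimum count 10, minimum total 15), scaled by TMM and compared with edgeR 4.0.16 (robust quasi-likelihood, R 4.3.3), with BH adjustment over 17123 genes. Of these 981 were higher and 762 lower. CPM is the count over the TMM-scaled total of tested genes, and RPKM divides it by the union of annotated exons (GENCODE M21, GRCm38). Intervals of 95% are normal intervals from the SE. The test was checked on simulated counts for p95HER2 against EV on 16968 genes: it called 16 of 50 genes changed by 1.25-fold, 27 of 50 by 1.5-fold, 41 of 49 by 2-fold, 48 of 50 by 4-fold, and 11 of 16769 unchanged genes. Most changes of 1.25-fold were thus missed in that setting. The simulation changed 200 genes, where 1743 were called in the data, so the share missed among the members may differ.

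The members and gene lists were chosen with earlier results of these data known. Named genes were the 10 members, the called genes within 500 kb of Erbb2 and the 2 nearest expressed genes on each side of the members, up to 4 called genes of each pathway list by smallest adjusted p, and the 5 genes most like Erbb2 whose mean log2 CPM was 1 or more. A gene that this rule took is not reported here. Other genes were named for their role or after their values were seen. Hgs, with 2 identifiers, was not measured in the turnover list. Alternatives were scaling by library totals only or by RLE, a filter at 1 CPM in 8 tumours or none, DESeq2 1.42.0, limma voom (limma 3.58.1), the muscle, luminal or immune marker level as a covariate, thinned libraries, and each tumour left out in turn. Counts per list without EV 1 and with the immune covariate were added after the data were seen.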

Additional observations from a re-analysis of the deposited data

Results flagged for a closer look

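In 74 groups of values (37 named genes in EV and in p95HER2 tumours) 1 tumour stood far from the others of its group in 10 cases, by Dixon's criterion at the 95% level. Chance flags about 1 in 20 groups. Among the members, Lrig1 was high in EV 1 at 102 CPM, with the next EV tumour at 69.0, and Errfi1 was high in p95HER2 8 at 148 CPM, with the next at 114. Of the 10 cases 7 were in EV 1: besides Lrig1 these were Csf3 (4.09 CPM), Hbegf (29.0), Gab1 (84.2), Cd44 (215) and S100a6 (170.5) as the highest and Nck2 (155.5) as the lowest value of the group. Csf3 in p95HER2 8 (9.72 CPM) and Muc1 in p95HER2 4 (47.2 CPM) were the others. EV 1 also had the highest luminal (6.51), basal epithelial (3.93) and keratinocyte (4.03) marker levels and the lowest muscle level (2.96). The part of these levels in the flagged values was not tested.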

How the results depend on the processing

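Erbb2 remained called and higher in all 28 alternatives, with a log2 fold change from 1.13 to 1.27 over the 18 fits without 1 tumour and a BH-adjusted p of at most 4.565e-06. The counts of genes called moved more. With the immune level as a covariate 320 genes were higher and 137 lower, and with the luminal level 1247 were lower. Without 1 tumour the higher count ran from 792 to 1201 and the lower count from 489 (without p95HER2 2) to 1130. The cause was not tested. The difference in spread of Erbb2 ran from 0.107 to 0.197 without 1 tumour. With the longest transcript as length, EV means were 8.63 RPKM for Egfr, 14.4 for Grb7, 9.65 for Pgap3 and 20.8 for Stard3. The neighbourhood median was 0.11 within 250 kb. The sign changed for values near 0: Errfi1 without p95HER2 8 (-0.001, with 0.117 as the highest value without 1 tumour), Cdk12 with the muscle level as a covariate (-0.00), and S100a6 with library totals (-0.002), the muscle level (-0.024), voom (-0.127) and in 9 of the fits without 1 tumour (range over all 18 from -0.129 to 0.101). No paired analysis was possible because replicate numbers only name samples. By depth, counting error was largest for Erbb4, at 12.7% in EV tumours.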
